A study of Rattus norvegicus with 17 samples.

Results

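The cytosolic ribosomal protein genes of the rat were followed in the livers of sham-operated and bile duct ligated animals. Genes were taken by symbol: Rpl or Rps followed by a digit, Rplp0, Rplp1, Rplp2 and Rpsa, leaving out the ribosomal protein S6 kinases and pseudogenes. Only probe sets that name 1 gene were used, which gave 48 genes of the 14217 with such a probe set, 15 of the small subunit and 33 of the large subunit, on 55 probe sets. Rplp1, Rplp2, Rps18 and Rps27a had no probe set naming them alone. Of the 48 genes, 41 had a probe set above the filter on dim signals, an intensity over 15.5 (log2 value 3.95) on 5 arrays or more. The other 7 were Rpl26l1, Rpl28, Rpl30, Rpl39, Rpl39l1, Rpl3l and Rps13, whose probe sets exceeded that level on no array, except that of Rpl39 on 1 array, and they received no test. Of all genes, 9735 passed the filter.

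Each of the 17 arrays (Affymetrix oligonucleotide arrays for the rat genome, whole-liver RNA) came from 1 rat. Sham operation was an abdominal incision, with saline (6 rats). The 6 ligated saline rats had bile duct ligation and saline. The 5 ligated ghrelin rats had bile duct ligation and ghrelin, a peptide hormone, at 10 µg/kg/day. All 3 groups carried a subcutaneous osmotic minipump, were operated at week 7 and gave their liver at week 9, which is 2 weeks later. Strain and sex were not given in the sources used here, and no sham rats given ghrelin were among the groups analysed, so ghrelin could be compared only within ligated rats.

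The cytosolic ribosome is built from a small subunit, which reads the messenger RNA, and a large subunit, which joins amino acids. Its proteins are made in matched amounts from many separate genes, and most of their messenger RNAs start with a run of pyrimidines (C or T in the DNA), the 5' terminal oligopyrimidine or TOP motif, through which mTORC1 and the RNA-binding protein Larp1 regulate their translation. The liver makes large amounts of secreted protein, and ribosome production rises when liver cells grow or divide. Obstruction of the bile duct is a standard model of cholestatic injury, with growth of bile ductules, inflammation and fibrosis. Probe set values are given below as log2 intensity, changes as a log2 difference ± SE, and a gene was called when its adjusted p was under 0.05 (limma with Benjamini-Hochberg adjustment over all 15964 kept probe sets).

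The sequence around the annotated transcription start is a feature that the choice by symbol did not use. RefSeq's promoter table (rat assembly GRCr8) held 41 of the 48 genes. The windows below cover 25 bases on each side of the annotated start, read 5′ to 3′ on the gene's strand, with the longest run of C and T in capitals. The first 7 belong to the largest increases after ligation that had an entry. Rps23 is shown for its long run, and Rps27l and Rpl7l1 as copies of ribosomal protein genes, the first called lower and the second not called.
Rpl12: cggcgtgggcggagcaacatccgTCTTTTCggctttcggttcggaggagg
Rpl3: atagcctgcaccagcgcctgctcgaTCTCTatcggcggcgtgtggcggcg
Rpl5: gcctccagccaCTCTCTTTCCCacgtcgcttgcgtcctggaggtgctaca
Rps24: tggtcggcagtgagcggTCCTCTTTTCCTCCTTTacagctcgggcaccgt
Rps6: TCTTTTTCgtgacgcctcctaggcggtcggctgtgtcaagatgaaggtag
Rps16: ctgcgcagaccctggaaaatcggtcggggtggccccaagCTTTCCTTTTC
Rps15a: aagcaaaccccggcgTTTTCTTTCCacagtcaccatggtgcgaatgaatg
Rps23: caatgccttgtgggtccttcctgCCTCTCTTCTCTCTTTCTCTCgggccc
Rps27l: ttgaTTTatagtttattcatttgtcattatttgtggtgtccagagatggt
Rpl7l1: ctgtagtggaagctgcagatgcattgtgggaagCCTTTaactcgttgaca

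The windows lie as follows in GRCr8: Rpl12 at chr3:36661915-36661964 on the plus strand, Rpl3 at chr7:113507966-113508015 on the minus strand, Rpl5 at chr14:1995201-1995250 on the minus strand, Rps24 at chr16:96492-96541 on the plus strand, Rps6 at chr5:106420516-106420565 on the minus strand. The others are Rps16 at chr1:92770633-92770682 on the plus strand, Rps15a at chr1:181860260-181860309 on the minus strand, Rps23 at chr2:23814492-23814541 on the plus strand, Rps27l at chr8:76443633-76443682 on the plus strand and Rpl7l1 at chr9:21695693-21695742 on the plus strand. The longest run measured 21 bases in Rps23, 17 in Rps24, 11 in Rpl5 and in Rps16, and 10 in Rps15a. It was 8 bases in Rps6, 7 in Rpl12 and 5 in Rpl3. The runs of Rps6 and Rps16 reach the edge of the window and may be longer than given. Those of Rpl12 and Rpl3 end inside it, so the genes with the largest increases did not share a long run around the annotated start. Rpl7l1 had 5 bases and Rps27l had 3.

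Among the 32 genes that were called higher after ligation and had an entry, 23 (71.9%) held a run of at least 8 pyrimidines within this window. Of all 41 genes with an entry, 28 (68.3%) held one, but the 32 are part of the 41, so these shares were bound to be close. Among tested genes not called higher, the longest run was 8 bases in Rps4y2, 5 in Rpl7l1 and 3 in Rps27l. These are too few genes to tell whether the run is particular to those that rose. The share was 17.2% over 8148 kept genes, 19.3% over all 27457 promoters of the table and 23.7% over 59 kept genes for mitochondrial ribosomal proteins. The median longest run was 11 bases in the 32 genes, 10 in the 41 genes and 5 bases in each of the other sets. Pyrimidine words of 6 letters, which can overlap each other, were searched in this window on the gene's strand. CTTTCC was found in 31.2% of the 32 genes, in 2.2% of kept genes and in 2.27% of all promoters. CTCTTT was found in 25%, 1.6% and 2.09% of these sets. CTTTTC was found in 21.9%, 1.67% and 1.87%. At least 1 of the 3 words was present in 18 of the 32 genes (56.2%), in 20 of the 41 (48.8%), in 4.88% of kept genes and in 5.63% of all promoters. CGGAAG, the core bound by ETS family factors, was searched on both strands of the full window of 300 bases and was present in 46.9% of the 32 genes, 32.9% of kept genes and 52.5% of mitochondrial ribosomal protein genes. AAGATGGCG, the core of the YY1 site, was searched in the same way and was found in 9.38%, 4.09% and 13.6% of these sets and in 1.93% of all promoters. These matches describe the letters around annotated starts, which need not be the starts used in these livers.

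Bile duct ligation raised nearly the whole set by a similar, moderate amount. In ligated saline against sham rats, 38 of the 41 tested genes were higher, 1 (Rps27l) was lower and 2 (Rpl7l1 and Rps4y2) were not called. Across all kept genes 64.7% were called, 37.5% higher and 27.2% lower. The 41 genes were brighter than all kept genes (median level 13.46 against 8.02). Their standard errors were also smaller (median 0.0728 against 0.123), so a change of a given size was more easily called in them. The 38 increases ran from 0.30 ± 0.0581 for Rps29 (1.23-fold, limma adjusted p = 0.00029) to 0.88 ± 0.0739 for Rpl12 (1.85-fold, limma adjusted p = 4.59e-08), with a median of 0.59, or 1.5-fold. They clustered in a narrow band: 24 of the 38 lay between 0.5 and 0.7, and none reached 1. The median over the 41 tested genes was 0.58, against 0.07 over all kept genes.

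For each of these 38 genes, all 11 ligated arrays lay above all 6 sham arrays. These genes were picked by their call in the same data, which makes an overlap less likely. Of all 41 tested genes, 38 were higher and 1 lower without overlap in ligated saline against sham rats. Groups without any overlap between ligated saline and sham, with ligation higher, were seen in 25.9% of all kept genes (44.5% counting both directions). The filter on dim signals played no part in this, since each of the 38 probe sets was above it on all 17 arrays, with mean levels from 12.54 to 15.03. In bulk liver, more of a cell type and more RNA per cell cannot be told apart.

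**Figure D1:**
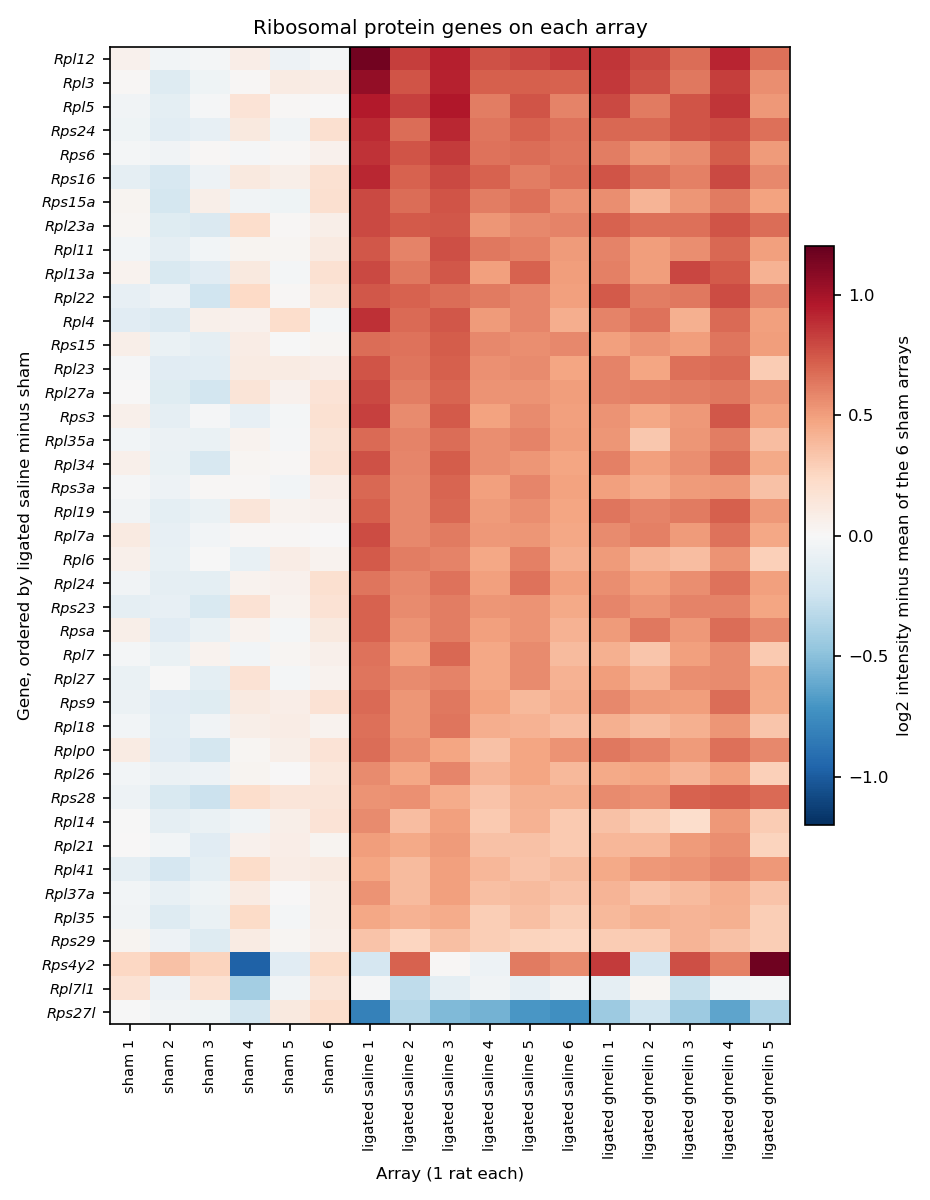
Each row is 1 of the 41 tested ribosomal protein genes and each column 1 rat, coloured by log2 intensity minus the mean of the 6 sham arrays. The 38 upper rows are raised on all 11 ligated arrays, while Rps4y2, Rpl7l1 and Rps27l in the 3 lowest rows were not called higher.

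In the small subunit, 12 of 13 genes rose (Rps27l left out as a copy, and Rps4y2 not called), with a median of 0.59. Rps24, a small subunit protein mutated in some patients with Diamond-Blackfan anaemia, had lowest, median and highest values of 13.20, 13.29 and 13.52 in the sham group, 13.97, 14.02 and 14.23 in the ligated saline group, and single values of 14.02, 14.02, 14.08, 14.11 and 13.99 on the ligated ghrelin arrays. Its change of 0.75 ± 0.0732 (1.68-fold, limma adjusted p = 2.45e-07) was the largest of the small subunit. Rps6, the classic substrate of the S6 kinases, had lowest, median and highest values of 13.42, 13.46 and 13.51 in the sham group, 14.10, 14.17 and 14.33 in the ligated saline group, and single values of 14.07, 13.99, 14.03, 14.19 and 13.97 on the ligated ghrelin arrays. It rose by 0.74 ± 0.0616 (1.66-fold, limma adjusted p = 4.65e-08), and its 6 sham values were the most tightly grouped of the genes shown here, none overlapping the ligated values. Rps16, a protein of the small subunit head, had lowest, median and highest values of 13.13, 13.33 and 13.50 in the sham group, 13.94, 14.03 and 14.23 in the ligated saline group, and single values of 14.08, 13.99, 13.93, 14.11 and 13.90 on the ligated ghrelin arrays. All ligated rats exceeded all sham rats, by 0.73 ± 0.0768 in the saline group (1.66-fold, limma adjusted p = 5.38e-07). Rps15a, another small subunit protein, had lowest, median and highest values of 12.69, 12.89 and 13.09 in the sham group, 13.45, 13.56 and 13.69 in the ligated saline group, and single values of 13.46, 13.31, 13.43, 13.52 and 13.38 on the ligated ghrelin arrays. The increase was 0.67 ± 0.0719 (1.59-fold, limma adjusted p = 6.4e-07), again without overlap.

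Rpsa, the small subunit protein also known as the laminin receptor precursor, had lowest, median and highest values of 12.13, 12.28 and 12.38 in the sham group, 12.68, 12.80 and 12.97 in the ligated saline group, and single values of 12.78, 12.90, 12.79, 12.94 and 12.84 on the ligated ghrelin arrays. It rose by 0.55 ± 0.0664 (1.47-fold, limma adjusted p = 2.38e-06). Its other kept probe sets, whose identifiers mark probes shared between transcripts, rose by 0.78 and 0.55, so all 3 moved upward. Rps28, one of the smallest ribosomal proteins, had lowest, median and highest values of 12.26, 12.56 and 12.72 in the sham group, 12.86, 12.95 and 13.06 in the ligated saline group, and single values of 13.08, 13.06, 13.22, 13.24 and 13.19 on the ligated ghrelin arrays. It rose by 0.45 ± 0.0835 (1.37-fold, limma adjusted p = 0.000175), and 4 of its 5 ghrelin values exceeded the highest saline value. Rps29, another very small protein, went from 14.67 to 14.93 in sham rats to 15.09 to 15.19 in ligated saline rats and 15.12 to 15.24 in ligated ghrelin rats. Its increase was the smallest of the 38 and was not called when array medians were set equal (0.11, limma adjusted p = 0.0966). The other small subunit genes, Rps3, Rps3a, Rps9, Rps15 and Rps23, rose by 0.61, 0.59, 0.53, 0.63 and 0.57.

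In the large subunit, all 26 tested genes rose (Rpl7l1 left out as a copy), with a median of 0.58. Rpl12, which joins the base of the stalk where translation factors dock, had lowest, median and highest values of 12.99, 13.03 and 13.13 in the sham group, 13.81, 13.89 and 14.21 in the ligated saline group, and single values of 13.91, 13.84, 13.72, 13.96 and 13.71 on the ligated ghrelin arrays. Its change of 0.88 ± 0.0739 (1.85-fold, limma adjusted p = 4.59e-08) was the largest of all tested ribosomal protein genes. Rplp0, the stalk protein itself and a common reference gene in quantitative PCR, had lowest, median and highest values of 13.22, 13.47 and 13.59 in the sham group, 13.78, 13.94 and 14.10 in the ligated saline group, and single values of 14.06, 14.03, 13.94, 14.09 and 14.01 on the ligated ghrelin arrays. It rose by 0.51 ± 0.0748 (1.42-fold, limma adjusted p = 1.85e-05), without overlap between sham and ligated rats. Rpl3, which reaches towards the peptidyl transferase centre, had lowest, median and highest values of 13.48, 13.65 and 13.73 in the sham group, 14.34, 14.37 and 14.69 in the ligated saline group, and single values of 14.48, 14.40, 14.27, 14.46 and 14.19 on the ligated ghrelin arrays. The change was 0.81 ± 0.0796 (1.75-fold, limma adjusted p = 2.49e-07). A second Rpl3 probe set, at levels between 6.42 and 7.34, rose by 0.40 ± 0.0849 (limma adjusted p = 0.000656).

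Rpl5 and Rpl11 bind the 5S ribosomal RNA together and, when free of the ribosome, can bind Mdm2. Rpl5, the first of this pair, had lowest, median and highest values of 13.17, 13.28 and 13.45 in the sham group, 13.88, 14.08 and 14.25 in the ligated saline group, and single values of 14.08, 13.91, 14.04, 14.15 and 13.81 on the ligated ghrelin arrays. It rose by 0.78 ± 0.0834 (1.72-fold, limma adjusted p = 6.33e-07). Rpl11, its partner, had lowest, median and highest values of 12.80, 12.91 and 13.02 in the sham group, 13.42, 13.52 and 13.68 in the ligated saline group, and single values of 13.50, 13.41, 13.47, 13.60 and 13.40 on the ligated ghrelin arrays. It rose by 0.64 ± 0.0648 (1.56-fold, limma adjusted p = 3.56e-07). Both genes therefore moved up without overlap of sham and ligated arrays. Rpl23 and Rpl26, which have also been linked to the p53 pathway, rose by 0.62 and 0.48. Of 6 tested p53 pathway genes, Cdkn1a, a cell cycle inhibitor, rose by 3.18 ± 0.279 and Ccng1 by 0.67 ± 0.122, Sesn2 fell by 0.38, and Mdm2 (0.03 ± 0.151) was not called.

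Rpl23a, a protein beside the exit of the nascent chain tunnel, had lowest, median and highest values of 13.01, 13.20 and 13.40 in the sham group, 13.72, 13.85 and 13.98 in the ligated saline group, and single values of 13.89, 13.85, 13.85, 13.94 and 13.86 on the ligated ghrelin arrays. It rose by 0.66 ± 0.0738 (1.58-fold, limma adjusted p = 1.03e-06), and its 5 ghrelin values were close together. Rpl13a, also used as a reference gene, had lowest, median and highest values of 13.21, 13.40 and 13.57 in the sham group, 13.88, 14.06 and 14.18 in the ligated saline group, and single values of 14.00, 13.89, 14.19, 14.13 and 13.81 on the ligated ghrelin arrays. It rose by 0.64 ± 0.0878 (1.56-fold, limma adjusted p = 8.7e-06). Rpl6, a large subunit protein, had lowest, median and highest values of 12.90, 13.02 and 13.08 in the sham group, 13.43, 13.59 and 13.73 in the ligated saline group, and single values of 13.50, 13.40, 13.36, 13.53 and 13.28 on the ligated ghrelin arrays. It rose by 0.58 ± 0.0689 (1.49-fold, limma adjusted p = 2.17e-06). Rpl41, a peptide so short that it is among the smallest known proteins, had lowest, median and highest values of 13.19, 13.38 and 13.61 in the sham group, 13.73, 13.78 and 13.88 in the ligated saline group, and single values of 13.84, 13.91, 13.93, 13.97 and 13.91 on the ligated ghrelin arrays. It rose by 0.41 ± 0.073 (1.33-fold, limma adjusted p = 0.00012). The smallest increases of the large subunit were those of Rpl35 (0.38), Rpl14 (0.41), Rpl21 (0.41), Rpl37a (0.41) and Rpl41. The other large subunit genes rose by 0.48 (Rpl26) to 0.64 (Rpl4 and Rpl22).

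**Figure D2:**
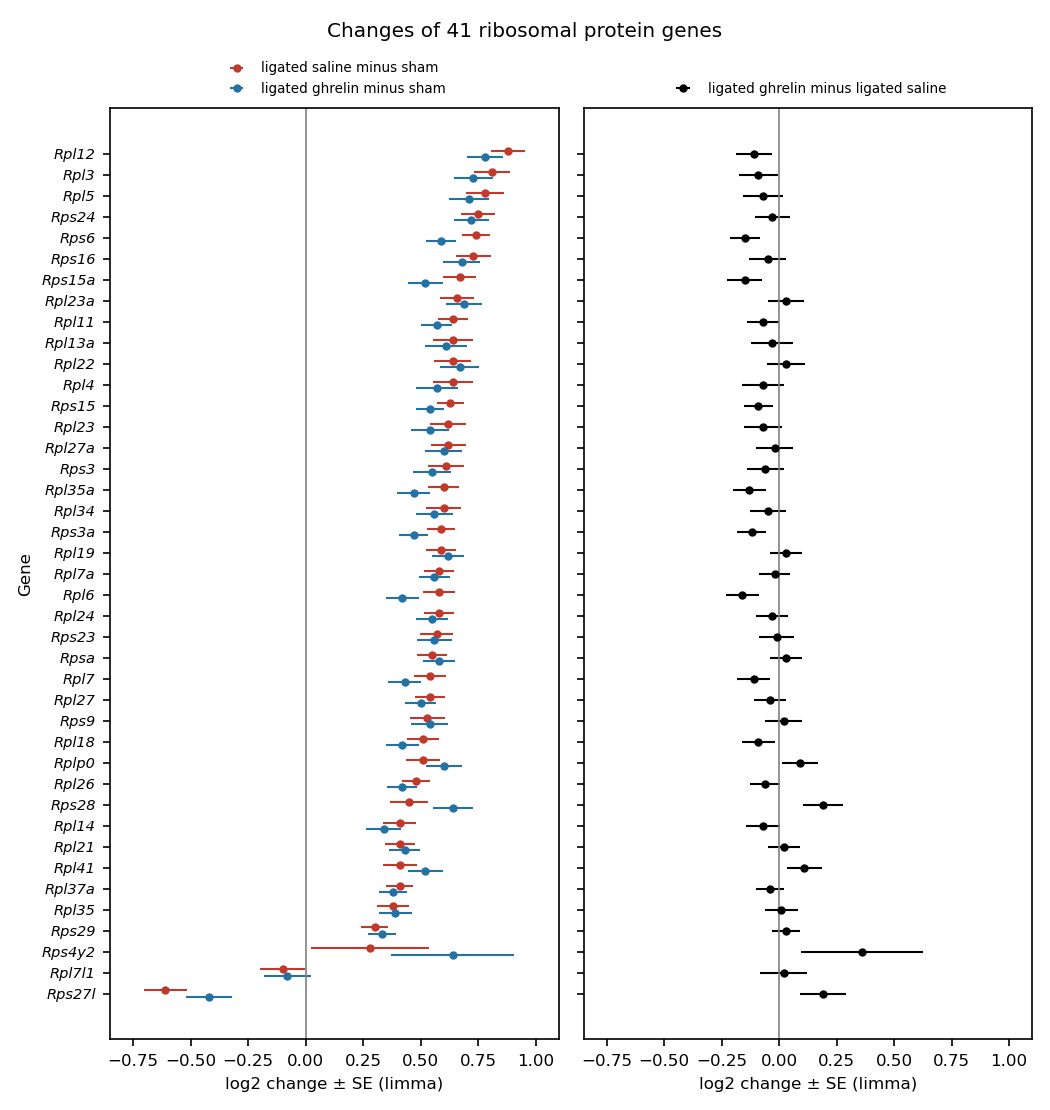
Points are log2 changes and bars their limma standard errors for the 41 tested genes, ordered by ligated saline minus sham. In the left panel 38 genes lie to the right of 0 in both ligated groups and were called; in the right panel, ghrelin against saline in ligated rats, no gene was called.

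Of the 3 tested genes that were not called higher, Rps27l was called lower, while Rpl7l1 and Rps4y2 did not pass the test in either direction. Rps27l, a close copy of Rps27 whose human counterpart is a p53 target, had lowest, median and highest values of 7.19, 7.39 and 7.63 in the sham group, 6.60, 6.78 and 7.07 in the ligated saline group, and single values of 6.98, 7.18, 6.98, 6.78 and 7.04 on the ligated ghrelin arrays. It fell: -0.61 ± 0.0946 (0.653-fold, limma adjusted p = 3.05e-05), with all ligated saline values below all sham values, which 18.6% of kept genes also showed. Against sham, the ligated ghrelin rats were lower by 0.42 on the log2 scale (-0.42 ± 0.0992, limma adjusted p = 0.00186). Rpl7l1, a copy of Rpl7, had lowest, median and highest values of 9.21, 9.67 and 9.80 in the sham group, 9.31, 9.55 and 9.60 in the ligated saline group, and single values of 9.51, 9.64, 9.35, 9.58 and 9.59 on the ligated ghrelin arrays. Its change of -0.10 ± 0.0969 was not called (limma adjusted p = 0.384). Its second probe set, at levels between 8.24 and 9.16, was called higher (0.39 ± 0.108, limma adjusted p = 0.00529), so the probe sets of this gene disagreed.

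Rps4y2, a small subunit protein of the Rps4 family, had lowest, median and highest values of 6.05, 7.26 and 7.37 in the sham group, 6.82, 7.31 and 7.73 in the ligated saline group, and single values of 7.86, 6.82, 7.79, 7.62 and 8.19 on the ligated ghrelin arrays. The groups overlapped widely and the change of 0.28 ± 0.255 was not called (limma adjusted p = 0.351). Its 95% interval ran from -0.26 to 0.82, which includes both 0 and the median increase of 0.59 of the 38 genes. It was not counted among the copies, so it is part of every count and mean given without copies. Rpl7, of which Rpl7l1 is a copy, had lowest, median and highest values of 13.43, 13.51 and 13.57 in the sham group, 13.88, 14.03 and 14.19 in the ligated saline group, and single values of 13.93, 13.84, 14.00, 14.07 and 13.82 on the ligated ghrelin arrays. It rose by 0.54 ± 0.0685 (1.45-fold, limma adjusted p = 4.2e-06). A second Rpl7 probe set, at only 5.44 to 6.83, was called lower (-0.65 ± 0.142, limma adjusted p = 0.000852). The mean of both probe sets was not called (-0.05, limma adjusted p = 0.605), so the call for Rpl7 rests on taking the brighter probe set. A second Rps24 probe set (5.75 to 7.04) was also called higher after ligation (0.59 ± 0.159, limma adjusted p = 0.00428), while in ligated ghrelin against sham rats it gave 0.08 ± 0.167 (limma adjusted p = 0.701). The call for Rps24 in ligated ghrelin against sham rats (0.72) therefore rests on its brighter probe set, whose identifier marks probes shared between transcripts. Ribosomal protein genes have many processed pseudogenes, and a probe set can also read transcripts of a near-identical copy, whose part was not tested.

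Beyond these genes, 36 probe sets name a ribosomal protein gene together with another gene and cannot be assigned. Of the 35 kept, 33 were called higher after ligation and 0 lower, with a median of 0.59, and the ghrelin comparison called 0 of them. They are not counted among the 41 genes.

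The increase was shared by the rats of each group. The mean of 39 genes (Rps27l and Rpl7l1 left out, Rps4y2 included) was 13.03 ± 0.078 in sham (SD, n = 6), 13.60 ± 0.0858 in ligated saline (SD, n = 6) and 13.57 ± 0.0652 in ligated ghrelin rats (SD, n = 5). The sham arrays ranged from 12.93 to 13.13, the ligated saline arrays from 13.51 to 13.72 and the ligated ghrelin arrays from 13.51 to 13.67, so neither ligated group overlapped sham. These means describe genes chosen with earlier results known and carry no test. The genes also moved together within groups: on ligated saline array 1, 38 of the 39 genes were above their own group mean, and on array 4 of that group 0 were. In the sham group the count ran from 1 on array 2 to 36 on array 6, and in the ghrelin group from 3 on array 5 to 38 on array 4. The 39 genes are therefore not independent measurements of an array. Array-wide intensity partly went along with these counts. The median intensity was 17.6 on ligated saline array 1 and 16.4 on ligated ghrelin array 4, each the highest of its group. It was 15.4, the lowest of its group, on ligated ghrelin array 5. On ligated saline array 4 (16.3), sham array 2 (14.3) and sham array 6 (14.6) it lay inside the group's range. Joint movement of these genes was not separated from array-wide intensity.

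**Figure D3:**
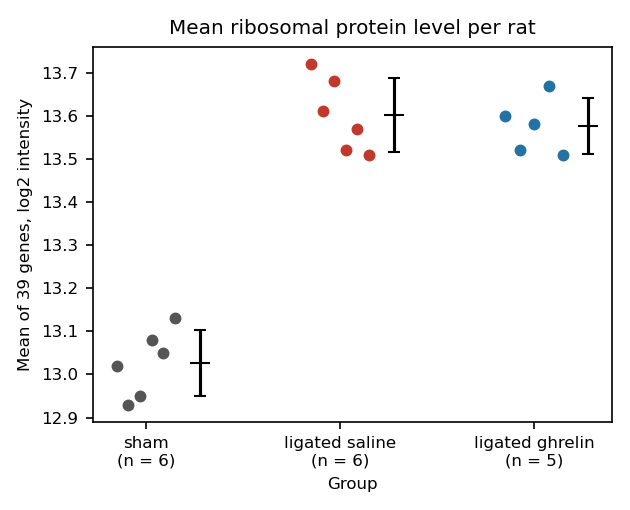
Each point is the mean log2 intensity of 39 ribosomal protein genes in 1 rat, and the bar beside each group is the mean ± SD. All 6 sham rats lie between 12.93 and 13.13 and all ligated rats between 13.51 and 13.72.

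Array-wide properties moved with ligation and bear on the size of the change. The median intensity of an array was 14.2 to 14.7 in sham, 16.1 to 17.6 in ligated saline and 15.4 to 16.4 in ligated ghrelin rats. With array medians set equal, the median change of the 41 genes was 0.39, and that of all kept genes moved from 0.07 to -0.12. Setting medians equal shifts every gene on an array by the same amount. The lead of the ribosomal protein genes over all kept genes was therefore bound to be the same, 0.51, with either scaling, which is no check on it. After quantile normalization the lead was 0.70. The counts of higher and lower genes were 38 and 1 with the deposited values and after quantile normalization, and 37 and 2 with equal medians, the second lower gene being Rpl7l1 (-0.29, limma adjusted p = 0.0163). Over all kept genes, the share of calls that were higher was 58%, 46.9% and 41.8% with these 3 scalings. Signs of RNA integrity overlapped between groups: the 3′ minus 5′ difference of beta-actin was 1.86 to 2.37 in sham, 1.75 to 2.05 in ligated saline and 1.88 to 2.62 in ligated ghrelin rats, and that of GAPDH 0.02 to 0.27, 0.04 to 0.20 and 0.10 to 0.62.

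Ghrelin left the ribosomal protein genes without a called change. In ligated ghrelin against ligated saline rats, limma called 0 of the 41 genes, against 2.34% of all kept genes. An unadjusted limma p under 0.05 was seen in 3 of the 41 genes, a smaller share than the 2138 of all 9735 kept genes. The median difference was -0.04, against 0.01 over all kept genes, with 14 genes above 0 and 27 below. Rpl6 differed by -0.16 ± 0.0723 (limma adjusted p = 0.226), Rps6 by -0.15 ± 0.0646 (limma adjusted p = 0.204) and Rps15a by -0.15 ± 0.0754 (limma adjusted p = 0.265). On the positive side Rps28 differed by 0.19 ± 0.0876 (limma adjusted p = 0.226), Rps27l by 0.19 ± 0.0992 (limma adjusted p = 0.277) and Rpl41 by 0.11 ± 0.0766 (limma adjusted p = 0.434). The second, dimmer Rps24 probe set, which does not represent the gene, differed by -0.50 ± 0.167 and was not called (limma adjusted p = 0.102). The other kept probe sets that do not represent a gene differed by 0.01 (Rpl7) to 0.15 (Rpl3). The groups overlapped in all 41 genes, where 4.53% of kept genes had groups without overlap (3.04% with ghrelin higher).

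The 95% intervals give a range for the difference between the ligated groups gene by gene, with the deposited values. They are not adjusted for the number of genes, so they set no joint bound. The scaling is also outside them: with equal array medians the median difference of the 41 genes was 0.03 instead of -0.04. For the 38 genes that rose with ligation, the 95% intervals of ghrelin minus saline together spanned -0.31 to 0.37, whereas their intervals for ligated saline minus sham spanned 0.18 to 1.04. A p above the threshold does not show that both ligated groups were alike. Measured from sham, 38 of 41 genes were higher in ligated ghrelin rats, 1 was lower (Rps27l) and 2 were not called. Of these 2, Rps4y2 (0.64 ± 0.267, limma adjusted p = 0.0536) was called higher when sham array 2 (0.71) or ligated ghrelin array 2 (0.85) was left out. All kept genes gave 56.2% called and 35% higher in that comparison, and 25% without overlap and higher. The median of the 41 genes was 0.55 (1.47-fold), against 0.09 over all kept genes. This comparison shares its sham arrays with the ligated saline comparison. For Rpl12 the changes from sham were 0.88 under saline and 0.78 under ghrelin, for Rps6 0.74 and 0.59, for Rplp0 0.51 and 0.60, and for Rps28 0.45 and 0.64.

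Other genes of the translation machinery are given by list, and over all kept genes 64.7% were called after ligation, 37.5% higher and 27.2% lower. Rack1, a small subunit protein outside the naming rule, rose by 0.85 ± 0.08 (limma adjusted p = 1.71e-07), as much as the largest ribosomal protein increases. Of 12 messenger RNAs other than the 48 that are known to carry a TOP motif, Rack1 included, 11 rose and 1 (Eif4b, 0.20 ± 0.0952) was not called, with a median of 0.48. Among them Eef1g, an elongation factor subunit, rose by 0.86 ± 0.0761, Eef1b2 by 0.55 ± 0.109, Eef2 by 0.39 ± 0.102 and Eef1a1 by 0.36 ± 0.0634. Vim, which rose by 3.54 ± 0.197, is also a marker of mesenchymal cells. With array medians set equal, 8 of the 12 were called higher and 0 lower.

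Of 30 initiation factor genes 16 rose, 4 fell and 10 were not called (median 0.21). The share called in either direction was close to that of all kept genes, but the share called higher was 53.3%, against 37.5%. Eif1ax rose by 1.15 ± 0.125, Eif6, which keeps free large subunits from joining small ones, by 0.66 ± 0.0801, and Eif3m by 0.53 ± 0.0687. The genes that fell were Eif3j (-0.26) and 3 subunits of the exchange factor eIF2B, Eif2b5 (-0.56), Eif2b1 (-0.32) and Eif2b4 (-0.28). With equal array medians 7 rose and 4 fell, and the share called higher was 23.3%, against 28.6% of all kept genes. Of 13 elongation and release factor genes 6 rose and 0 fell (median 0.11), but 3 rose and 5 fell with equal medians. Of these 6, Eef1a1, Eef1b2, Eef1d, Eef1g and Eef2 were already counted among the TOP messenger RNAs, as were the initiation factors Eif3f, Eif3h and Eif4b. Cytosolic aminoacyl-tRNA synthetases, which charge tRNAs, gave 3 higher, 5 lower and 11 not called of 19 (median -0.07), and 2 higher and 8 lower with equal medians. Ghrelin against saline gave 0 calls in these lists, and 1 initiation factor called higher with equal medians.

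Genes that build ribosomes were called in both directions, with shares that depended on the scaling. Of 65 biogenesis factors 17 rose, 13 fell and 35 were not called (median 0.08), and the split turned to 10 higher and 24 lower after quantile normalization and 8 and 25 with equal medians. Fbl, the methyltransferase of ribosomal RNA, rose by 0.60 ± 0.11 and Ncl (nucleolin) by 0.50 ± 0.127. Ddx56, a nucleolar helicase, fell by 0.93 (SE 0.0892) and Imp4 by 0.63 (SE 0.0749). Of 20 RNA polymerase I genes 6 rose, 3 fell and 11 were not called (median 0.07), which turned to 2 higher and 5 lower after quantile normalization and 2 and 8 with equal medians. The transcription factor Ubtf was at 0.02 ± 0.0779 and not called. Of 17 genes of mTORC1 and Myc control 5 rose, 2 fell and 10 were not called (median 0.01). This split also turned, to 3 higher and 5 lower after quantile normalization and 3 and 7 with equal medians (median -0.18). Myc rose by 1.88 ± 0.352 (limma adjusted p = 0.000206) and Rheb, an activator of mTORC1, by 0.37 ± 0.0581. The other genes of this list called higher were Maf1 (0.44 ± 0.104), Mxi1 (0.30 ± 0.105) and Tsc1 (0.19 ± 0.079). Akt1s1 was called lower (-0.52 ± 0.112). Rps6kb1, the S6 kinase that acts on Rps6, fell by 0.60 (SE 0.104), and Mtor (-0.15 ± 0.12) and Larp1 (0.02 ± 0.118) were not called.

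**Figure D4:**
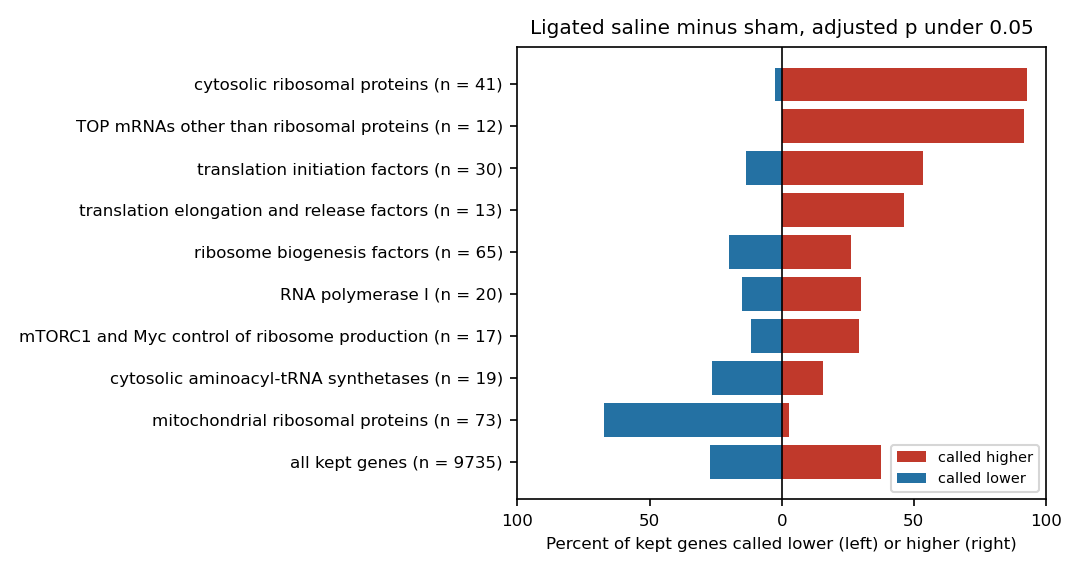
Bars give the percent of kept genes of each list called lower (left) or higher (right) in ligated saline against sham rats. Some genes of the TOP list are also in the initiation or elongation factor lists. Cytosolic ribosomal proteins and the other TOP mRNAs lie almost wholly on the right, biogenesis factors on both sides, and mitochondrial ribosomal proteins mainly on the left.

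Mitochondrial ribosomal proteins, encoded by other nuclear genes for the ribosome inside mitochondria, were mostly lower. Of 73 tested genes 49 fell, 2 rose and 22 were not called after ligation, with a median of -0.33, where the cytosolic set had 0.58. With equal array medians 62 fell and 1 rose. Mrpl15 fell by 0.92 (SE 0.0976), Mrps9 by 0.83 (SE 0.08) and Mrpl2 by 0.68 (SE 0.076). The exceptions that rose were Mrps6 (0.76 ± 0.0996) and Mrpl17 (0.19 ± 0.0731). Under ghrelin 7 of the 73 were higher than in ligated saline rats and 0 were lower (median 0.15), where 1.76% of kept genes were called higher. The count was 14 after quantile normalization and 18 with equal medians, with 0 lower in both. The 7 genes were Mrpl38 (0.91 ± 0.153, limma adjusted p = 0.0127), Mrpl35 (0.50 ± 0.101), Mrpl37 (0.46 ± 0.106), Mrpl51 (0.42 ± 0.0999), Mrpl10 (0.38 ± 0.0923), Mrps5 (0.38 ± 0.086) and Mrpl28 (0.32 ± 0.0798). Against sham, the ligated ghrelin rats had 26 lower and 5 higher.

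**Figure D5:**
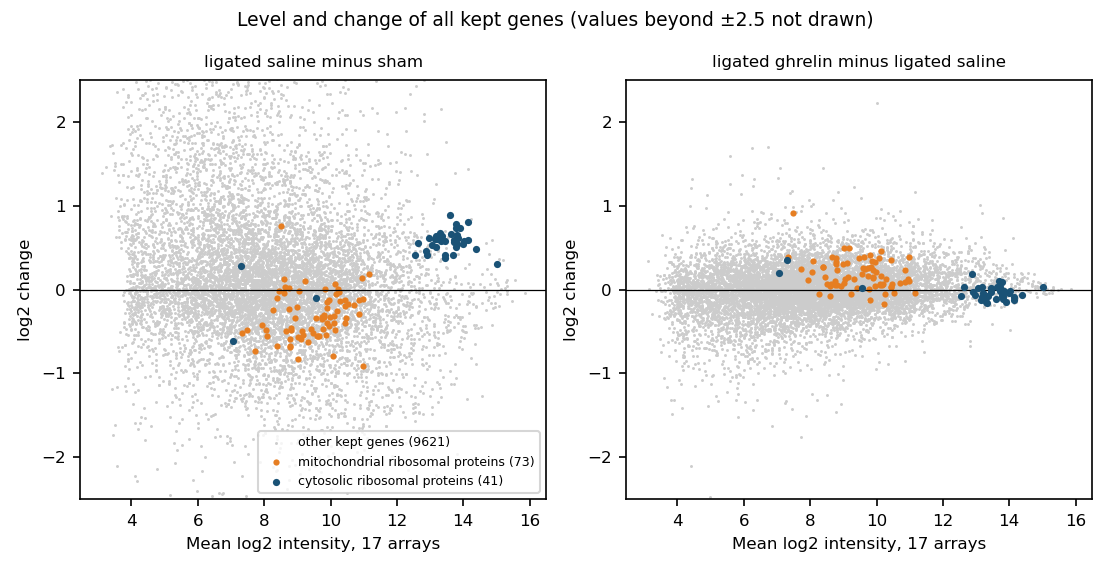
Each point is 1 of the kept genes, at its mean log2 intensity over 17 arrays and its log2 change, for ligated saline minus sham (left) and ligated ghrelin minus ligated saline (right); 496 and 6 genes beyond ±2.5 are not drawn. Most cytosolic ribosomal protein genes form a group above 0 on the left, mitochondrial ribosomal protein genes lie mostly below 0 there, and on the right the cytosolic group lies around 0.

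Markers of several cell types moved along with the ribosomal proteins. All 7 cholangiocyte markers rose (median 5.52), their summed intensity going from 364 to 711 in sham to 5811 to 18295 in ligated saline and 7089 to 11492 in ligated ghrelin rats. Among 8 markers of stellate cells and myofibroblasts, 7 were called higher and 1 (Lrat) lower, with sums of 3343 to 4316, 14161 to 28969 and 11369 to 15181 in the same order. Of 7 macrophage markers 6 rose and 1 fell, with sums of 9103 to 14606, 19278 to 23749 and 15003 to 21703. All 3 kept neutrophil markers of 5 rose, and of 5 kept lymphocyte markers of 9, 3 rose and 1 fell. Of 7 endothelial markers 2 rose and 1 fell. Of 10 hepatocyte markers 0 rose, 4 fell and 6 were not called (median -0.09), but 9 of the 10 were called lower with equal array medians (median -0.28). Their deposited sums overlapped between sham (252865 to 277626) and ligated saline rats (227703 to 262385). Both kept erythroid markers fell. All 22 cell division genes rose (median 2.91), with sums of 1347 to 1765, 3457 to 12409 and 5386 to 8683. The part of these shifts in the rise of the ribosomal protein genes was not tested. Ghrelin changed 1 of these marker and cell division genes by the test, Col3a1, which was lower (-0.68, limma adjusted p = 0.0342), and with equal medians 1 hepatocyte marker was also called higher.

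Rplp0 and Rpl13a belong to the genes often used to normalise quantitative PCR, and both rose. Of 12 other such genes 7 rose, 2 fell and 3 were not called after ligation, and 5 rose and 3 fell with equal medians. Tubb5 rose by 2.33 ± 0.218, Hprt1 by 0.90 ± 0.0986 and B2m by 0.18 ± 0.0535, Sdha fell by 0.66 (SE 0.0932), and Tbp, Pgk1 and Polr2a were not called (-0.12, 0.17 and 0.16). Ghrelin changed 0 of these 12 by the test, and Rplp0 and Rpl13a differed between the ligated groups by 0.09 ± 0.0784 and -0.03 ± 0.0921 (limma adjusted p = 0.549 and 0.868).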

How the data were processed

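Whole-liver RNA of 17 rats was measured on 1 array each. The values used are the deposited intensity values per probe set, made by the authors with GCRMA per the submitters' processing notes and given on a linear scale; the GCRMA version was not given in the sources used here. Members and gene lists were chosen with earlier results of these data known.

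Intensities were converted to log2 without a pseudocount. Control probe sets (57 of 31099) were left out, and 15964 of 31042 probe sets exceeded the median intensity (15.5) on at least 5 arrays. Gene symbols came from the platform annotation, and 46 of the 48 genes matched RefSeq (GRCr8) by gene identifier, with 0 symbols changed. Each gene was represented by its brightest kept probe set with 1 symbol. Group means of all 3 groups were fitted with limma 3.58.1 (lmFit, eBayes; R 4.3.3) without covariates, with Benjamini-Hochberg adjustment over all kept probe sets. The fit was tested on simulated data. No batch was given in the labels. The number of arrays limits the precision.

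Named genes were the 8 largest rises and 8 largest falls among called members, up to 4 uncalled members with the smallest change, the 3 lowest ghrelin p-values in each direction, and a fixed set (Rplp0, Rpsa, Rps6, Rpl13a, Rpl5, Rpl11, and pairs of gene and copy). Other genes named, among them Rps29 and the smallest increases, were chosen after their values were seen, as was leaving out Rps4y2 to form the 38 genes. Alternatives were no filter, a stricter filter, quantile normalization, equal array medians, fits of 2 groups, an intensity trend with robust variances, array weights, means over probe sets, no shared-probe probe sets, no copies, and each array left out.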

Additional observations from a re-analysis of the deposited data

Results flagged for a closer look

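In groups of 5 or 6 arrays the highest or lowest value was compared with its nearest neighbour, 60 times over the named genes and the mean of the set, and chance marks about 1 in 20 such groups. There were 2 that stood apart. Rps4y2 was at 6.05 on sham array 4, with the nearest sham value at 6.88, a gap of 0.628 of the group's range. Rpl7l1 was at 9.31 on ligated saline array 2, with the nearest value at 9.51, a gap of 0.682 of the range. Neither gene was called after ligation.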

How the results depend on the processing

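The count of genes called higher after ligation was 37 to 39 under every alternative run (36 to 39 for ligated ghrelin against sham), 0 ghrelin calls appeared under any of them, and leaving out each array in turn gave 38 higher and 1 lower with a median of 0.56 to 0.60. For ligated ghrelin against sham, leaving out each array gave 38 to 39 higher, 1 lower and a median of 0.52 to 0.58, and for ghrelin against saline 0 higher, 0 lower and a median of -0.06 to -0.01. The number called lower, 1 in both comparisons with sham, was 4 without the filter, 0 with the stricter filter and 0 without copies in both, and 2 with equal medians in ligated saline against sham. Equal medians also moved the median change to 0.39 (ligated saline) and 0.43 (ligated ghrelin) from sham, and the difference of the mean per array to the same 0.39 and 0.43. With means over probe sets, Rpl7 was at -0.05 (saline) and -0.10 (ghrelin) from sham, Rpl7l1 at 0.14 and 0.19, and Rpl3 at 0.03 for ghrelin against saline. Without probe sets of shared probes, Rps24 lost its call in ligated ghrelin against sham rats (0.08, limma adjusted p = 0.701). Signs of uncalled ghrelin differences turned for Rpl13a (0.04), Rps16 (0.02) and Rps24 (0.04) with equal medians, for Rpl7l1 without ligated saline array 2 (-0.02) or ligated ghrelin array 2 (-0.01), and for Rpl13a without ligated ghrelin array 5 (0.02). Leaving out each array gave -0.08 to 0.02 for Rpl13a and -0.02 to 0.06 for Rpl7l1 in that comparison. Rps4y2 was called higher in ligated ghrelin than sham rats with array weights (0.61, limma adjusted p = 0.0369) and without sham array 2 (0.71, limma adjusted p = 0.046) or ligated ghrelin array 2 (0.85, limma adjusted p = 0.0102). The cause of these changes was not tested. No paired analysis was possible because the numbers in the sample titles are not shared between groups.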
